A study of Mus musculus with 24 samples.

Results

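The nuclear genes of oxidative phosphorylation were followed through RNA sequencing of stromal cells from embryonic mouse kidneys. Members were all genes of the table whose symbols begin as those of the structural subunits do: Nduf followed by a, b, c, s or v and a number for complex I, Sdha to Sdhd for complex II, Uqcr for complex III, Cox4 to Cox8 for complex IV and Atp5 for complex V. There were 78 members among 13803 genes, 36 of complex I, 4 of complex II, 8 of complex III, 13 of complex IV and 17 of complex V. The rule used symbols and no measured value, so that Ndufa4 and Ndufa4l2 count in complex I throughout.

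The cells carried a FoxD1Cre-eGFP transgene and were sorted by fluorescence after collagenase digestion, some of them a second time. The 24 libraries formed 8 groups of 3. The groups called SD, which here never stands for an error, had deficient beta-catenin on a C57BL/6 background, at E13.5 and E12.5 (embryonic days after conception), and their references were wild-type C57BL/6 cells of the same days. The SO groups had stabilised beta-catenin on a CD1 background at the same days, with wild-type CD1 cells as references. Cre is driven by Foxd1, a gene of stromal progenitors, so the sorted cells stand for cells that express this transgene and not for the whole kidney. Which alleles were used to remove or stabilise beta-catenin was not stated in the labels. Each line had its own strain, and nothing tells whether a group's 3 libraries were different animals, so that p-values refer to library spread, which may be technical.

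The respiratory chain passes electrons from NADH through complex I, or from succinate through complex II, to complex III and on to complex IV, which reduces oxygen. Complexes I, III and IV pump protons across the inner mitochondrial membrane, and complex V, the ATP synthase, uses the gradient to make ATP. Most subunits are encoded in the nucleus and a few in mitochondrial DNA, and the kidney becomes rich in mitochondria as its tubules mature. Coactivators of the PGC-1 family and the factors NRF1, GABP and ERR-alpha are known to drive these nuclear genes.

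Depth ran from 6.18 to 21.2 M reads (M, mega) per library. The 7 stromal markers, Foxd1 among them, had reads in every group, and their summed level was between 6353 and 10864 counts per mega-read (CPM) in any library. Col1a1 and Col3a1 were the highest of them in every library, so the sum mostly follows these 2. Single markers differed in both directions. At E13.5 Foxd1 had log2 CPM of 7.68, 7.53 and 7.05 in SO, against 8.26, 8.92 and 8.84 in wild-type CD1. Tcf21 was higher there (7.81, 7.63 and 7.46, against 6.47, 6.43 and 6.29). In SD at E13.5 Tcf21 was lower (5.63, 5.62 and 5.69, against 6.85, 7.05 and 6.97 in wild-type C57BL/6). RNA of other cells was also present. CD1 wild-type E13.5 replicate 1 was the highest of its group for erythroid markers (4045 CPM summed over 6 genes, against 40.4 in the lowest library of the group), endothelial markers (768 against 38.8, 9 genes), nephron progenitor markers (319 against 98.6, 6 genes) and ureteric markers (261 against 46.7, 7 genes). C57BL/6 wild-type E12.5 replicate 3 had 4363 CPM of 4 liver transcripts, against 15.8 in the lowest library of its group. CD1 wild-type E13.5 replicate 3 had 942 CPM of them, against 17.2 in the lowest library of its group. In bulk samples, fewer cells of a type and less RNA per cell cannot be told apart.

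The members were well expressed and even. Together they held between 0.773 and 1.01% of the reads of a library. The median member had a mean log2 CPM of 6.12, against 4.79 for the median of all genes, and 77 of the 78 had reads in every library. Between its lowest and highest group mean, the median member differed by 0.31 on the log2 scale, 65 members by under 0.5, and 5 by more than 1. Those 5 were Ndufa4l2, Atp5s, Cox7a2l, Ndufa12 and Cox4i2.

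Levels of different genes were compared as CPM per kilobase of annotated exon, for the 77 members with a matched gene model. On this scale the ATP synthase held the highest members: Atp5a1 and Atp5b, which encode the alpha and beta subunits of the catalytic head, had 341 and 275. Complex IV ranged between Cox8a at 205 and Cox4i2 at 3.41, and complex I between Ndufa2 at 121 and Ndufa4l2 at 2.85. Complex III ran between Uqcr10 at 104 and Uqcrq at 30.9, and complex II between Sdhd at 81.0 and Sdhc at 41.3. The lowest member of complex V was Atp5l, the g subunit, at 2.21, and it has near-identical sequence at 9 other annotated loci, so that its counts are uncertain. By median, complex III was highest at 62.6 CPM per kilobase, complexes II and V followed at 55.2 and 55.1, complex IV had 47.6 and complex I 37.3. The exon annotation may hold ends and isoforms that these cells do not use, which lowers such values.

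Where the members held the form of most tissues and a testis or hypoxia-inducible paralog, the form of most tissues was the higher one. Cox4i1 had 158 CPM per kilobase and its hypoxia-inducible paralog Cox4i2 3.41. Cox6b1 had 180 and Cox6b2, known as a testis form, 13.6. Ndufa4, a subunit of complex IV despite its name but grouped by symbol in complex I here, had 101. Its hypoxia-inducible paralog Ndufa4l2, grouped likewise, had 2.85. Cox7a2 had 93.4 and Cox7a2l, which helps to assemble complexes III and IV into supercomplexes, 47.6. Cox6a1 had 144. The 3 genes that encode the same mature subunit c of ATP synthase differed, with 122 for Atp5g3, 82.2 for Atp5g2 and 10.1 for Atp5g1. Cox6a2, Cox7a1 and Cox8c were not among the genes with values here, so they could not be compared.

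The promoters of the members were searched for motifs of factors known to act on these genes. RefSeq windows of 300 bases (250 before and 50 after a start, GRCm38.p6) were matched by symbol for 62 of the 78 members and 10739 genes of the table. The motifs, sought on both strands, were the NRF1 motif (the letters GCGCA followed by their reverse complement), the ETS motif CCGGAAG that GABP can bind, and the YY1 motif AAGATGGC. Of the members, 8.065% held the NRF1 motif, 25.8% the ETS motif and 14.5% the YY1 motif, and 43.55% held any of the 3. Among all table genes with a window the shares were 2.26%, 19.15% and 4.99%, and 24.6% for any. Over the 27025 genes of the whole promoter set they were 1.07%, 9.93%, 3.19% and 13.4%. Of 69 mitochondrial ribosomal protein genes with a window, 53.62% held any of the 3, so that the share in the members was not the highest. Matches of different motifs overlapped in 0 member promoters. The following 7 windows are shown as examples of each motif and of windows without one, with matches in capitals on either strand. Cox6a1 (chr5:115348909-115349208, minus strand) holds an NRF1 and an ETS match, and Uqcrc1 (chr9:108936398-108936697, plus strand), a core subunit of complex III, an NRF1 match. Cox8a (chr19:7217567-7217866, minus strand) and Sdhd (chr9:50603800-50604099, minus strand) hold ETS matches, and Ndufs4 (chr13:114388045-114388344, minus strand), an accessory subunit of complex I, a YY1 match. Cox7b (chrX:106015450-106015749, plus strand) and Ndufa12 (chr10:94198785-94199084, plus strand) hold none of these letters in this window.
Cox6a1: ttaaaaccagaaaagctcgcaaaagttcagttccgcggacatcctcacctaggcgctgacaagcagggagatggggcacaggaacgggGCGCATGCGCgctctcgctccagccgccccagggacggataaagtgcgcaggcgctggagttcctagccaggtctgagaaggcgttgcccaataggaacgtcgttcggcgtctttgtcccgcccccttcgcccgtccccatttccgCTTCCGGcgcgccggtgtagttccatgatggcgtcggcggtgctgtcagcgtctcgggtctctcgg
Uqcrc1: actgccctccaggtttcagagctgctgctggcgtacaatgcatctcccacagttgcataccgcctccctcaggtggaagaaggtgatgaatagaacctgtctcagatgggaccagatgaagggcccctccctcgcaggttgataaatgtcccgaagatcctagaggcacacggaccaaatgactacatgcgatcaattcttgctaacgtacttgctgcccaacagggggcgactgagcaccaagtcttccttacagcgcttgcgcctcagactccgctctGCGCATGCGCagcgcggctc
Cox8a: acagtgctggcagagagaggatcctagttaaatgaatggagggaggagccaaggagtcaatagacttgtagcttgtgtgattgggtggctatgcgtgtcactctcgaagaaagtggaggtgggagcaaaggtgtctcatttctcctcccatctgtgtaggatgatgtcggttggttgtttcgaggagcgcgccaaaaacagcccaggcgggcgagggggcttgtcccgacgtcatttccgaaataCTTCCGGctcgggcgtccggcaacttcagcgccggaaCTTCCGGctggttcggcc
Sdhd: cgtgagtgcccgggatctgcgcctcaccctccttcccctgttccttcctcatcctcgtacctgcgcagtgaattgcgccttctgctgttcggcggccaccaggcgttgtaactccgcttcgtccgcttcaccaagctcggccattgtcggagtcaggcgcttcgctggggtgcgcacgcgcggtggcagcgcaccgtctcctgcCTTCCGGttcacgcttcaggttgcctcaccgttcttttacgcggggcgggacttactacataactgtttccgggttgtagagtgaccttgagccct
Ndufs4: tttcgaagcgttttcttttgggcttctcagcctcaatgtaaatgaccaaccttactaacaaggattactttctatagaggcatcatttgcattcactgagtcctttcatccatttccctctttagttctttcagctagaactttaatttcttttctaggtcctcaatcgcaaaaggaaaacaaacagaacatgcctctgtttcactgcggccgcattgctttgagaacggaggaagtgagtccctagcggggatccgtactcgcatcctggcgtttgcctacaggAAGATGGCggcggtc
Cox7b: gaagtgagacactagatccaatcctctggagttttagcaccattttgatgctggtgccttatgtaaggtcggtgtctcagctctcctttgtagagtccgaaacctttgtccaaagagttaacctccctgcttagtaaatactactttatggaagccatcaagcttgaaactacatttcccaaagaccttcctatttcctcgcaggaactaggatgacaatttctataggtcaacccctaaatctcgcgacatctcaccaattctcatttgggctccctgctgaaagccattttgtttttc
Ndufa12: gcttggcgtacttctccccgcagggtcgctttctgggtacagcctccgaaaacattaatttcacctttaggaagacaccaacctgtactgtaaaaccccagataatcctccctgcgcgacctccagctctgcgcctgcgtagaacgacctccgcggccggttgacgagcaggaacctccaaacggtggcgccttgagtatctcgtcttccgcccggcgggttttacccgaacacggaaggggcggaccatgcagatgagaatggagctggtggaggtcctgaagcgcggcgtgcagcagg

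**Figure D1:**
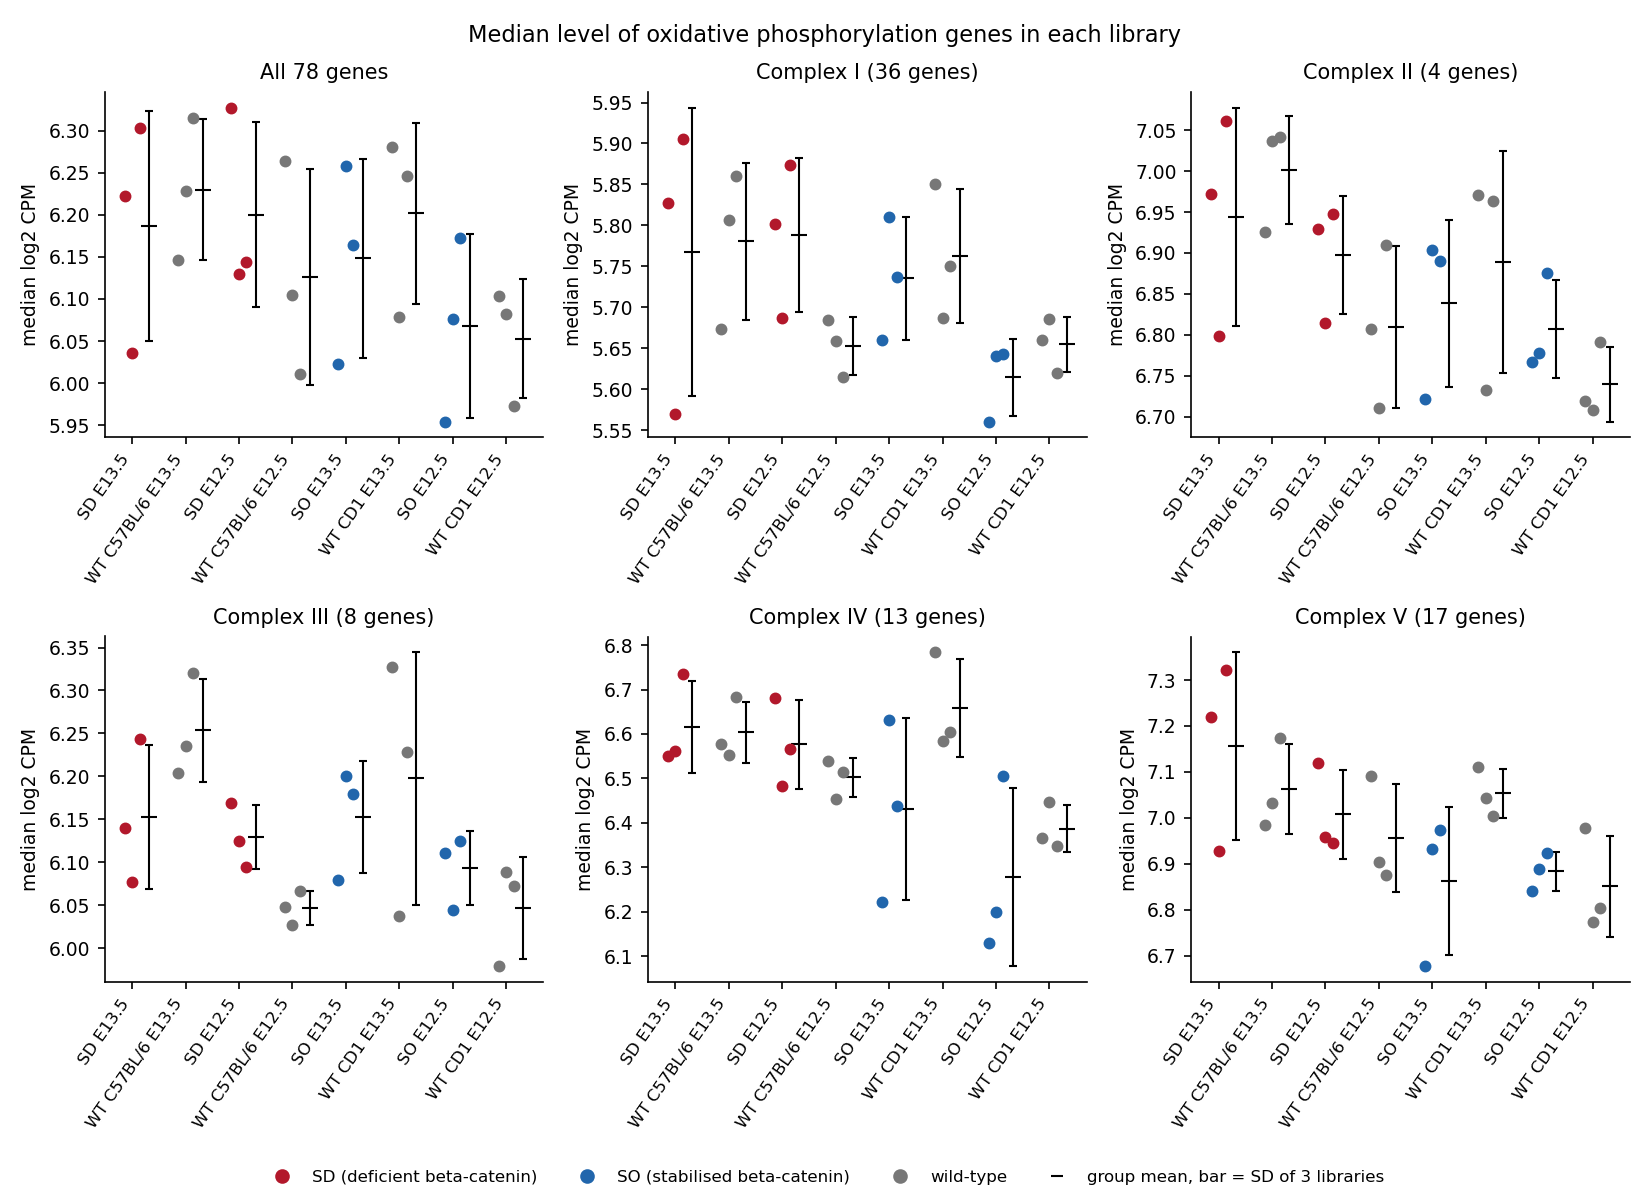
Median log2 CPM of the 78 members and of each complex in every library (dots), with the group mean and standard deviation of 3 libraries beside them; red is SD, blue SO and grey wild-type, and each mutant stands left of its wild-type. The library medians of all members lie between 5.95 and 6.33, and the mutant and wild-type ranges overlap in every pair for all 78 genes.

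The medians per library compare the mutants with wild-type over all members at once. At E13.5 the median member had a log2 CPM of 6.19 ± 0.14 in SD and 6.23 ± 0.08 in wild-type C57BL/6, and at E12.5 6.20 ± 0.11 in SD and 6.13 ± 0.13 in wild-type (standard deviation, n = 3 each). In SO it was 6.15 ± 0.12 at E13.5, against 6.20 ± 0.11 in wild-type CD1, and 6.07 ± 0.11 at E12.5, against 6.05 ± 0.07. Mutant and wild-type libraries overlapped in each of these 4 pairs. By complex they stood apart 3 times. Complex V was lower in SO at E13.5, with library medians of 6.68, 6.93 and 6.97 in SO, against 7.11, 7.04 and 7.0 in wild-type CD1. Complex I was higher in SD at E12.5, with 5.8, 5.69 and 5.87 in SD, against 5.68, 5.66 and 5.61 in wild-type. Complex III was higher there too, with 6.17, 6.12 and 6.09 in SD, against 6.05, 6.03 and 6.07 in wild-type. No test was run on complex medians.

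None of the 78 members passed the threshold in beta-catenin deficient cells. With limma, and with genes called where the Benjamini-Hochberg p over the whole table was under 0.05, 0 members were called at E12.5 in SD relative to wild-type, where 1.72% of all genes were called (0.985% higher and 0.732% lower). The count was 0 at E13.5 (3.4% of all genes, 1.33% higher and 2.07% lower) and 0 in the mean of the stages (7.17%, 3.46% higher and 3.71% lower). With voom weights these counts were 0 as well, and at an unadjusted p under 0.05 they were 5, 1 and 3. The 95% interval of the change lay within 2-fold either way for 75 members at E12.5, 75 at E13.5 and 76 in the mean, and within 1.5-fold for 69, 71 and 74. At E12.5, 58 of 78 members had a log2 change above 0 (74.4%, against 50.2% of all genes), with a median of 0.07. At E13.5, 29 did (37.2%, against 49.97% of all genes), with a median of -0.03. Without 1 library the median ran between 0.04 and 0.11 at E12.5, and at E13.5 its sign turned, with 0.02 without SD replicate 2 and -0.08 without wild-type replicate 1 as the ends. The difference between the stages was called for 0 members and 0% of all genes, with 2 members at an unadjusted p under 0.05. Genes of other kinds with under 2000 bases of exon, as most members have, had medians of 0.04 at E12.5 and -0.04 at E13.5.

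**Figure D2:**
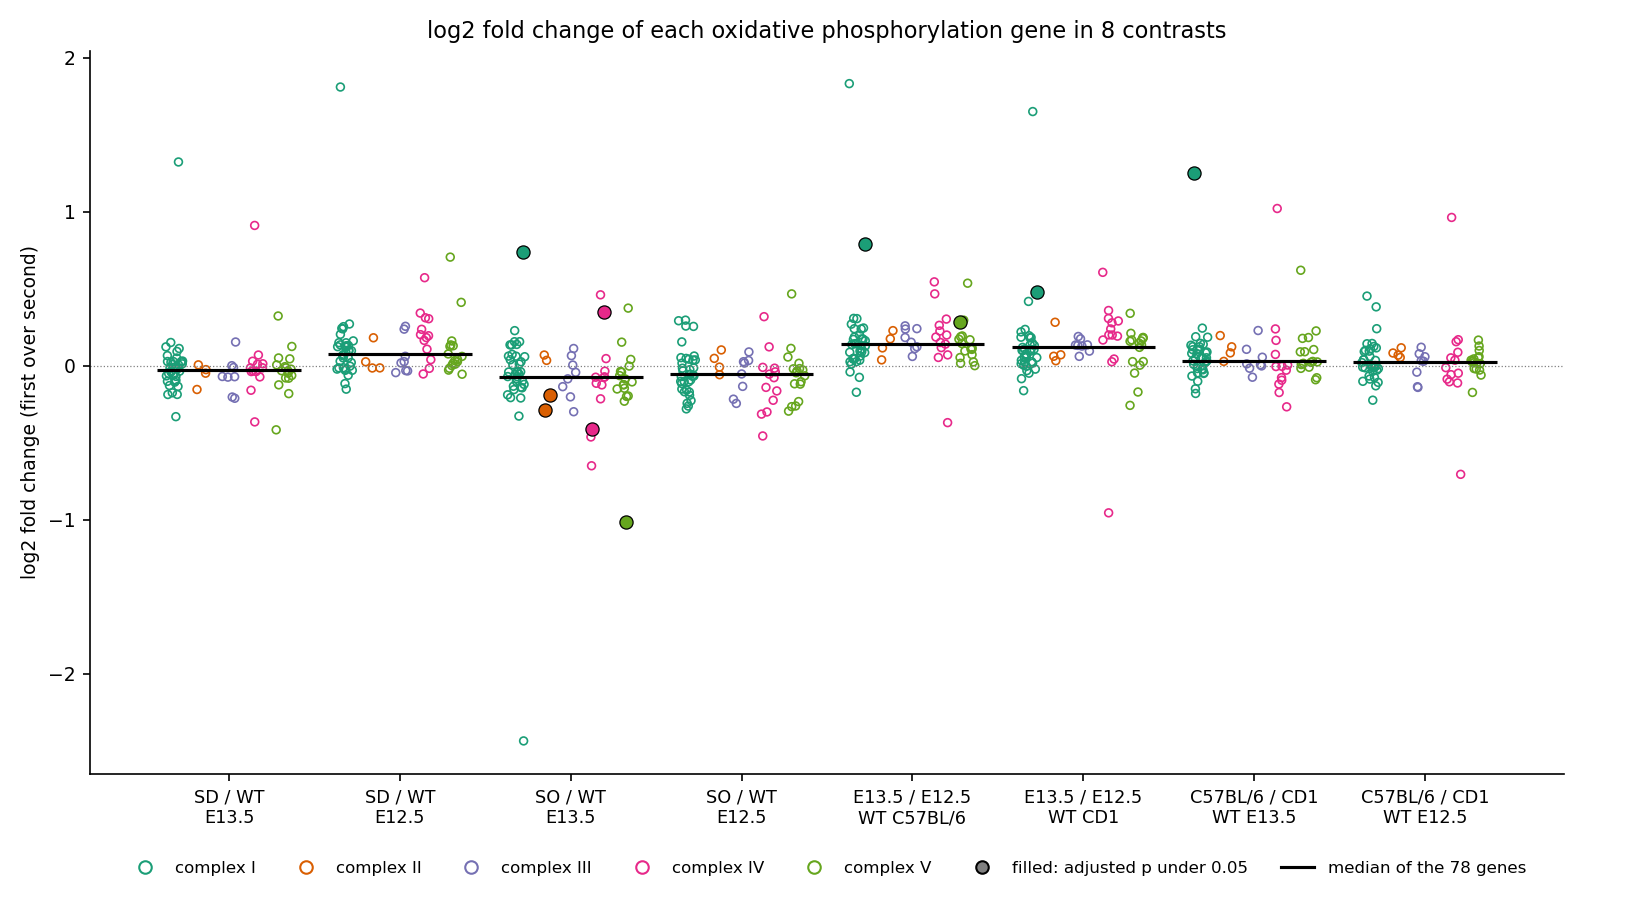
The log2 fold change (vertical axis) of each of the 78 members in 8 contrasts, coloured by complex; filled dots were called at an adjusted p under 0.05 and black bars are medians. SD has no filled dot, SO at E13.5 has 6, and the medians of both stage contrasts lie at 0.14 and 0.12, above those of the others.

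The members nearest to a call in SD at E12.5 were Atp5g1, Cox6c and Ndufs4. Atp5g1 had log2 CPM of 6.31, 5.87 and 5.94 in SD, against 6.21, 5.04 and 4.75 in wild-type. The groups overlapped through wild-type replicate 1, and the change was 0.71 ± 0.29 (log2, SE; limma adjusted p = 0.25). Without that replicate it was 1.14 and called (adjusted p = 0.0276), as it was in the mean of stages (0.73, adjusted p = 0.00842, against 0.51 and 0.137 with the library). Atp5g1 has a near-identical locus elsewhere in the genome. Cox6c, a small subunit of complex IV, changed by 0.20 ± 0.08 (adjusted p = 0.266) and Ndufs4 by 0.27 ± 0.12 (0.29), with SD libraries above wild-type in both. Of all members 12 had their 3 SD libraries above the 3 wild-type libraries at E12.5 and 0 below, which is 15.4%, against 8.64% of all genes above and 7.35% below. At E13.5 4 members lay above (5.13%, against 10.1% of all genes) and 3 below (3.85%, against 11.1%).

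At E13.5 the nearest were Cox4i2, Uqcr10 and Atp5l. Cox4i2 had 1.82, 1.25 and 1.91 in SD, against 1.24, 0.05 and 0.95 in wild-type, with 69 and 41 reads in all, so that every SD library was higher and the change was 0.91 ± 0.43 (limma adjusted p = 0.327). In the mean of stages it was 0.74 ± 0.30 (adjusted p = 0.158). Uqcr10, a small subunit of complex III, changed by -0.21 ± 0.10 (adjusted p = 0.346) and Atp5l by -0.42 ± 0.22 (0.408). Uqcrh, the hinge protein of complex III, came next in the mean of stages with 0.21 ± 0.09 (adjusted p = 0.211).

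Ndufa4l2, which is known as a target of hypoxia-inducible factor that lowers complex I activity, lay higher in every SD library than in every wild-type library at both stages. Its log2 CPM was 3.21, 2.39 and 3.53 in SD at E13.5, against 1.69, 1.74 and 1.74 in wild-type. At E12.5 it was 1.27, 1.63 and 2.20 in SD, against -0.65, 0.54 and -0.23 in wild-type. The group sums were 189 and 80 reads at E13.5, and 93 and 33 at E12.5. The change was 1.32 ± 1.27 at E13.5 (limma adjusted p = 0.714) and 1.81 ± 1.27 at E12.5 (0.584). These errors come from the spread shared by all groups, in which 1 SO and 1 wild-type CD1 library have 0 reads of this gene. Fitted on the 12 libraries of the SD line alone, the mean of stages was 1.57 and called (adjusted p = 0.00368), and on the 6 libraries of E13.5 the adjusted p was 0.0434 (that of E12.5 was 0.181). Its exons overlap those of Shmt2 on the other strand, and whether counting used strand is not stated in the labels.

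The 5 genes whose 8 group means followed those of Ndufa4l2 most closely were Klhl29, Hacd2, Steap4, 1700025G04Rik and a gene whose symbol spreadsheet software had turned into a date (Pearson r between 0.975 and 0.984 over 8 group means). For Cox4i2 they were Dnajc5 (0.991), Osbpl6 (0.961), Atp6v1a (0.957), Ppp1r3c (0.94) and Tnks1bp1 (0.924). These are the best of all other genes over 8 points, and they share libraries and normalisation.

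Ppargc1a, which encodes PGC-1alpha, a main coactivator of oxidative phosphorylation genes, was higher in SD. Its log2 CPM was 3.01, 3.57 and 3.10 in SD at E13.5, against 1.75, 1.30 and 0.30 in wild-type. That is a rise of 2.11 ± 0.29 on the log2 scale, or 4.32-fold (adjusted p = 0.000166), on 60 to 82 reads in SD libraries and 10 to 23 in wild-type libraries. At E12.5 it was 3.32, 3.52 and 3.66 in SD, against 2.06, 1.98 and 2.56 in wild-type, a rise of 1.30 ± 0.29 (2.46-fold, adjusted p = 0.0205). The call at E13.5 held without any 1 library (adjusted p up to 0.00186), and that at E12.5 was lost when replicate 2 or 3 of SD, or 1 or 2 of wild-type, was left out (up to 0.109). Ppargc1b, the paralog PGC-1beta, had a log2 change of -0.08 at E13.5 (adjusted p = 0.918) and 0.50 at E12.5 (0.313). At E13.5, where Ppargc1a was 4.32-fold higher in SD, 0 of the 78 members were called, against 3.4% of all genes. In wild-type C57BL/6, Ppargc1a was lower at E13.5 than at E12.5 (-1.08 ± 0.29, limma adjusted p = 0.0385). The fold at E13.5 was taken against that lower level. A link between Ppargc1a and the members was not tested.

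**Figure D3:**
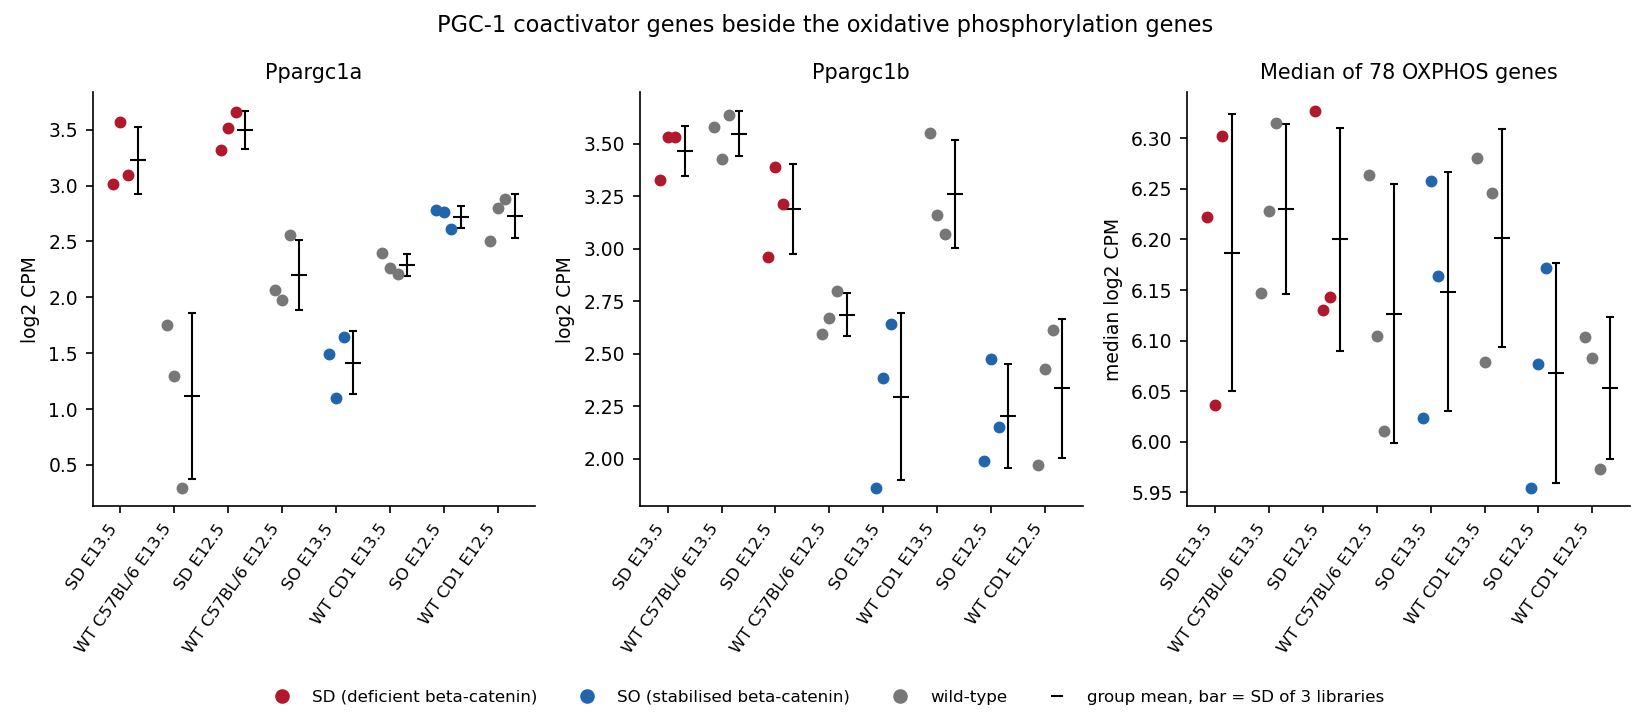
Log2 CPM of Ppargc1a and Ppargc1b and the median log2 CPM of the 78 members in every library (dots), with group mean and SD of 3 libraries. Ppargc1a is higher in every SD library than in every wild-type C57BL/6 library of its day, while the medians of the 78 members overlap.

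Other genes around the respiratory chain were also mostly uncalled in SD. In the mean of stages, 1 of 45 assembly factors fell, Cox18, which inserts a complex IV subunit into the membrane (-0.43 ± 0.12, adjusted p = 0.0348). Of 14 electron carriers and related genes, 1 rose, Etfb, a subunit of the flavoprotein that hands electrons from fatty acid oxidation to the chain (0.27 ± 0.06, 0.00491). Of 17 regulators, Ppargc1a rose and Myc fell (-0.46 ± 0.12, 0.0231), and of 17 genes of the citric acid cycle 0 were called. Of 22 hypoxia and glycolysis genes 1 rose, the oxygen sensor gene Egln3 (0.91 ± 0.18, 0.00208). The median changes were -0.01 for assembly factors, -0.04 for carriers and for the citric acid cycle and -0.03 for hypoxia and glycolysis, against 0.03 for the 78 members. With macrophage, endothelial and erythroid marker means as covariates the call of Etfb ended (0.0774) and that of Egln3 held. Other cells' RNA moved with SD. Of 10 macrophage markers 10 fell at E13.5 and 0 at E12.5. Their summed level was 13.99 to 41.2 CPM in SD at E13.5, against 164 to 277 in wild-type, and 70.8 to 165 in SD at E12.5, against 97.0 to 612. Of 9 endothelial markers 6 fell at E13.5 and 0 at E12.5 (43.0 to 68.3 CPM in SD and 110 to 122 in wild-type at E13.5). Emcn of this list went the other way at E13.5, with log2 CPM of 4.95, 4.73 and 5.53 in SD, against 4.07, 3.73 and 4.34 in wild-type. Of 6 erythroid markers 1 fell at E13.5, with 9.59 to 40.8 CPM in SD, against 41.3 to 1179 in wild-type. At E12.5 0 of the 6 were called, yet the sums did not overlap, at 9.09 to 61.4 CPM in SD, against 569 to 833 in wild-type. The sum of 6 nephron progenitor markers was higher in SD without overlap at both days, and 1 of 6 was called higher at each day. It was 205 to 241 CPM in SD, against 107 to 119 in wild-type at E13.5, and 155 to 218, against 91.7 to 99.7, at E12.5. The list did not move as a whole. Meox1 was higher in every SD library at both days (log2 CPM of 7.23, 7.06 and 7.12, against 5.41, 5.44 and 4.92 at E13.5). Itga8 was lower in every SD library at both days (5.32, 5.34 and 5.21, against 5.66, 5.49 and 5.72 at E13.5). The other markers of this list overlapped. The part of these other cells in the values of the members was not tested. The Ppargc1a rise at E13.5 was called in every alternative fit, including that with these 3 marker means as covariates (adjusted p up to 0.0104). The call at E12.5 ended with these covariates and on the 6 libraries of that day alone (up to 0.0562).

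With stabilised beta-catenin, 0 of the 78 members passed the threshold at E12.5 and 6 did at E13.5. At E12.5 limma called 0 members, with 8.16% of all genes called (5.17% higher and 3% lower), 4 members at an unadjusted p under 0.05 and 0 with voom weights. The 95% interval lay within 2-fold for 75 members. The nearest to a call were Cox7b (-0.31 ± 0.12, adjusted p = 0.104), Atp5d, the delta subunit of the ATP synthase stalk (-0.23 ± 0.09, 0.11), and Ndufv3, an accessory subunit of complex I (-0.28 ± 0.12, 0.163). At E13.5 limma called 2 members higher and 4 lower, 6 in all, or 7.69% of the members, against 15.4% of all genes (8.53% higher and 6.83% lower). The share of members called was thus under the background. The median change was -0.05 at E12.5 and -0.07 at E13.5, and 24 and 26 of 78 members had a change above 0 (30.8 and 33.3%, against 50.5 and 48.7% of all genes). Leaving out 1 library moved the median at E12.5 between -0.08 and -0.03. At E13.5 it was -0.000336 without SO replicate 1 and -0.13 without wild-type replicate 2, the ends of its range. Short genes of other kinds had medians of -0.08 and 0.00. The 95% interval at E13.5 lay within 2-fold for 73 members. By library, separation was not wider at E13.5. At E12.5 11 members had their 3 SO libraries below wild-type (14.1%, against 13.96% of all genes) and 2 above (2.56%, against 17.1%). At E13.5 9 lay below (11.5%, against 13.1% of all genes) and 2 above (2.56%, against 14.8%).

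The members called higher in SO at E13.5 were Cox6c and Ndufa12. Cox6c (chromosome 15, 35925886 to 35938246) had log2 CPM of 6.80, 7.21 and 7.10 in SO, against 6.78, 6.58 and 6.70 in wild-type CD1. The groups just failed to overlap, and the rise was 0.35 ± 0.08 (adjusted p = 0.00576). Cox6c shares sequence with Cox6c2 and Gm16399 and overlaps Vps13b on the other strand. Ndufa12 (chromosome 10, 94198720 to 94221443), an accessory subunit near the base of the matrix arm of complex I, had 4.50, 5.02 and 4.76 in SO, against 4.20, 3.76 and 4.10 in wild-type. Every SO library was higher, with a rise of 0.74 ± 0.21 (adjusted p = 0.0207). It has near-identical sequence at Gm15920.

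The members called lower in SO at E13.5 were Cox7b, Sdha, Sdhd and Atp5s. Cox7b (chromosome X, 106015700 to 106022450), a small subunit of complex IV, had 6.21, 6.59 and 6.43 in SO, against 6.79, 6.64 and 7.05 in wild-type. It fell by 0.41 on the log2 scale (SE 0.12, adjusted p = 0.0165), so that both small subunits of complex IV that were called went in opposite directions. Sdha (chromosome 13, 74322254 to 74350280), the flavoprotein of succinate dehydrogenase, had 7.89, 8.04 and 7.98 in SO, against 8.22, 8.14 and 8.11 in wild-type, a small change of -0.19 ± 0.05 (adjusted p = 0.017). Sdhd (chromosome 9, 50596357 to 50603812), a membrane anchor of the same enzyme, had 6.56, 6.35 and 6.61 in SO, against 6.87, 6.62 and 6.89 in wild-type, with a change of -0.29 ± 0.10 (adjusted p = 0.048). Both SO groups lay below wild-type without overlap, while the other 2 genes of complex II, Sdhb and Sdhc, were not called. Atp5s (chromosome 12, 69724950 to 69744660), which encodes coupling factor B, a protein linked to ATP synthase but not a core subunit, had 0.88, 1.69 and 1.79 in SO, against 2.56, 2.27 and 2.57 in wild-type. It fell by 1.01 (SE 0.25, adjusted p = 0.00688), the largest change of the 6, on 22 to 68 reads in SO libraries and 32 to 98 in wild-type libraries.

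**Figure D4:**
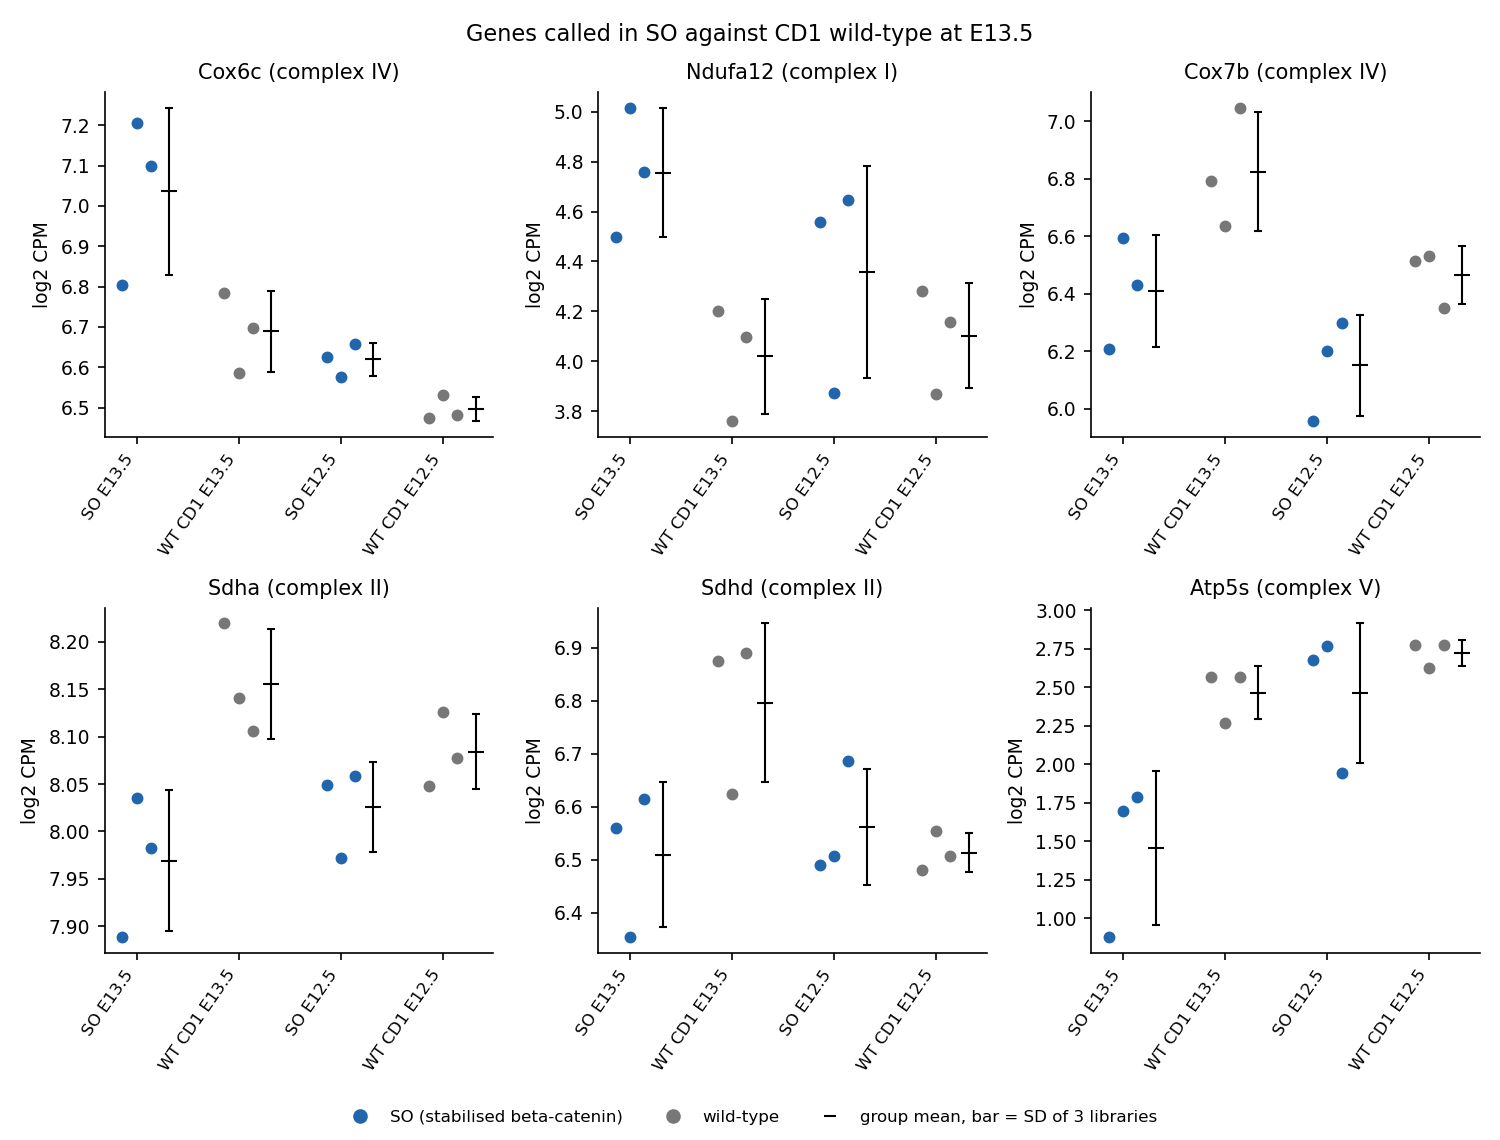
Log2 CPM of the 6 members called at E13.5 between SO and wild-type, in the SO and wild-type CD1 libraries of both days (dots), with group mean and SD of 3 libraries. At E13.5 the SO and wild-type libraries do not overlap in any of the 6 panels, and at E12.5 they overlap in 4 of them.

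Each of these 6 calls ended without 1 or more of the libraries. Without SO replicate 1, 2 members were called at E13.5, Cox6c and Ndufa12, both higher, and without SO replicate 2 there were 0 higher and 6 lower. Leaving out SO replicate 2 ended the call of Cox6c (adjusted p = 0.0514), SO replicate 1 that of Atp5s (0.0561), and SO replicate 1 or wild-type replicate 3 that of Cox7b (up to 0.122). That of Sdha ended without SO replicate 1 or wild-type replicate 1 (up to 0.0998), that of Ndufa12 without SO replicate 2 or 3 or wild-type replicate 2 (up to 0.105), and that of Sdhd without SO replicate 1 or 2 or wild-type replicate 1 or 3 (up to 0.217). With the means of the macrophage, endothelial and erythroid markers as covariates none of the 6 was called (adjusted p between 0.0694 and 0.175), and fitted on the 6 libraries of E13.5 alone, 1 was, Ndufa12. In SO at E13.5, 1 of 10 macrophage markers was called higher, with a summed level of 404 to 986 CPM, against 282 to 367 in wild-type. Of 9 endothelial and 6 erythroid markers 0 were called, with 232 to 359 CPM in SO against 38.8 to 768, and 73.4 to 577 in SO against 40.4 to 4045. Of 7 stromal markers 2 were called higher and 4 lower, with 9183 to 10256 CPM in SO and 6353 to 9442 in wild-type. Liver markers, at 29.8 to 80.3 CPM in SO and 17.2 to 942 in wild-type, were not among the covariates. The 942 was wild-type replicate 3. The part of other cells in the 6 changes was not tested beyond the fit with covariates.

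Averaged over both days, limma called 2 members higher and 7 lower in SO (9 of 78, or 11.5%), against 18.5% of all genes (10.2% higher and 8.32% lower). Cox6c (0.24 ± 0.06, adjusted p = 0.00627) and Ndufa12 (0.50 ± 0.15, 0.0235) were the ones called higher. Cox7b had the smallest p (-0.36 ± 0.08, 0.0025), and its call alone also held with the marker means as covariates (0.0294). Ndufv3 (chromosome 17, 31520115 to 31531331) had -0.30 ± 0.08 (0.0114), and Atp5d (chromosome 10, 80138632 to 80145818, overlapping Cbarp on the other strand) -0.21 ± 0.06 (0.016). Atp5s had -0.64 ± 0.18 (0.0129), Uqcrb, a small subunit of complex III with near-identical sequence at 3 loci, -0.27 ± 0.08 (0.0226), Sdha -0.12 ± 0.04 (0.0232) and Cox6b2 -0.38 ± 0.13 (0.0369). Calls of Cox7b, Cox6c, Ndufv3 and Atp5d held without any 1 library, and those of Uqcrb, Sdha, Ndufa12, Cox6b2 and Atp5s ended without 5, 4, 5, 7 and 1 of the 12 libraries in turn (adjusted p up to 0.0659, 0.069, 0.0767, 0.105 and 0.0505). The call of Cox6b2 also ended with voom weights, those of Cox6b2 and Sdha with the replicate block, and those of Cox6b2, Sdha and Atp5s on the 12 libraries of the SO line alone. At E12.5 markers of other cells stood apart too, with 59.0 to 974 CPM of erythroid markers in SO, against 3207 to 3319 in wild-type (1 of 6 called lower), and 40.8 to 48.9 CPM of liver markers in SO, against 254 to 292 in wild-type (2 of 4 called lower). Without wild-type E12.5 replicate 2 the count was 5, its lowest. The difference between the effects at E13.5 and E12.5 was called for 0 members (1.33% of all genes, 0.717% higher and 0.609% lower), with 5 at an unadjusted p under 0.05. Calls at a single day therefore do not show that the effect differs between days.

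Genes of other lists were called in SO in both directions. Ppargc1b fell at E13.5, with 1.86, 2.38 and 2.64 in SO, against 3.55, 3.16 and 3.07 in wild-type (-0.97 ± 0.23, adjusted p = 0.00423), and the value on these 6 libraries alone was 0.0853. Ppargc1a had 1.49, 1.10 and 1.65 in SO, against 2.39, 2.27 and 2.21 in wild-type (-0.87 ± 0.29, 0.0448), and each library other than SO replicate 3 was needed for the call (up to 0.162). Of 17 citric acid cycle genes, 2 rose and 2 fell in the mean of stages. Suclg2, the beta subunit of the GTP-forming succinyl-CoA ligase, fell by 0.51 (SE 0.06, adjusted p = 1.45e-06), with 5.95, 6.04 and 6.17 in SO at E13.5, against 6.75, 6.50 and 6.75 in wild-type. Of 22 hypoxia and glycolysis genes, 2 rose, Vegfa (0.39 ± 0.07, 0.000242) and Ldha, the lactate dehydrogenase A subunit (0.29 ± 0.06, 0.00142), and 2 fell, Egln3 (-1.09 ± 0.18, 8.34e-05) and Gpi1 (-0.18 ± 0.06, 0.0383). Of 14 carriers, Etfb and Coq4 fell (-0.30 ± 0.06 and -0.39 ± 0.10). Of 82 cytosolic ribosomal protein genes 2 rose and 37 fell, with a median of -0.19, against -0.05 for the 78 members, and of 78 mitochondrial ribosomal protein genes 0 rose and 2 fell.

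Etfb and Egln3 were called in opposite directions in the means of the SD and SO contrasts, which share no library. Ndufa12, Cox7b and the other members called in SO were not called in SD, and that difference was not tested.

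Most members had slightly higher group means at E13.5 than at E12.5 in both wild-type strains. Between E13.5 and E12.5 in wild-type C57BL/6, 74 of 78 members (94.9%) had a log2 change above 0, with a median of 0.14, and in wild-type CD1 68 of 78 (87.2%), with a median of 0.12. The shares over all genes were 50.2 and 50.7%, and among other genes with under 2000 bases of exon 59.1 and 52.4%. The 2 strains share no library, and 66 members were above 0 in both. Within a strain all members come from the same libraries, so their directions are not independent. The library medians of all members overlapped between days. They were 6.15 to 6.31 at E13.5 against 6.01 to 6.26 at E12.5 in C57BL/6. In CD1 they were 6.08 to 6.28 against 5.97 to 6.10. Complex IV had medians of 0.19 and 0.20, complex III 0.17 and 0.13, complex II 0.15 and 0.07, complex I 0.13 and 0.10 and complex V 0.12 and 0.15 in C57BL/6 and CD1. The changes were small, and few passed the threshold alone: limma called 2 members higher and 0 lower in C57BL/6 (3.96% of all genes called, 2.08% higher and 1.88% lower) and 1 higher and 0 lower in CD1 (5.42%, 2.42% higher and 3% lower). At an unadjusted p under 0.05 there were 16 in each.

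In C57BL/6 the called members were Ndufa12 and Atp5g3. Ndufa12 had 5.57, 5.05 and 5.20 at E13.5, against 4.8, 4.42 and 4.24 at E12.5, so that the days did not overlap (0.79 ± 0.21, adjusted p = 0.0401). Atp5g3 had 8.15, 8.19 and 8.32 at E13.5, against 7.97, 7.84 and 8.01 at E12.5 (0.28 ± 0.08, 0.0401). In CD1 it was Ndufb6, an accessory subunit of complex I, with 5.70, 5.48 and 5.53 at E13.5, against 5.00, 5.08 and 5.18 at E12.5 (0.48 ± 0.14, 0.0472), and it overlaps Smim27 on the other strand. The Ndufb6 call ended without any 1 of its 6 libraries (adjusted p between 0.0591 and 0.151). That of Ndufa12 ended without 5 of 6, all but E12.5 replicate 1 (up to 0.142), and that of Atp5g3 without E12.5 replicate 1 or 2 or E13.5 replicate 2 or 3 (up to 0.194).

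With both strains averaged, a contrast added after those within strains had been seen, limma called 10 members higher and 0 lower, or 12.8% of members, against 15.1% of all genes (7.59% higher and 7.5% lower). They were Atp5a1, Atp5d, Atp5b, Atp5g3, Sdhd, Cox8a, Cox7b, Uqcr10, Cox6b2 and Uqcrc2, of which 4 belong to complex V. Atp5a1 had 10.14, 10.21 and 10.21 at E13.5, against 9.99, 9.98 and 10.02 at E12.5 in C57BL/6, and 10.17, 10.07 and 10.25 at E13.5, against 10.04, 9.95 and 9.94 at E12.5 in CD1. The days did not overlap in either strain, and the change was 0.19 ± 0.04 (adjusted p = 0.00425). Atp5b, the catalytic beta subunit, behaved alike, with 10.27, 10.34 and 10.36 at E13.5, against 10.13, 10.10 and 10.16 at E12.5 in C57BL/6, and 10.36, 10.14 and 10.20 at E13.5, against 10.08, 10.09 and 10.04 at E12.5 in CD1 (0.18 ± 0.04, 0.00808). Atp5d had 0.25 ± 0.06 (0.00756), Atp5g3 0.22 ± 0.05 (0.00819), Sdhd 0.26 ± 0.07 (0.0142) and Cox8a 0.31 ± 0.08 (0.0146). These 6 calls held without any 1 of the 12 libraries. Those of Cox7b, Uqcr10, Cox6b2 and Uqcrc2 ended without 9, 10, 9 and 9 of them in turn (adjusted p up to 0.126, 0.114, 0.12 and 0.133). The difference of the stage effect between strains was called for 0 members (0.0145% of all genes), with 4 at an unadjusted p under 0.05.

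Markers of other cells also varied with the day. Erythroid markers summed to 41.3 to 1179 CPM at E13.5 against 569 to 833 at E12.5 in C57BL/6, and to 40.4 to 4045 against 3207 to 3319 in CD1. Macrophage markers summed to 164 to 277 at E13.5 against 97.0 to 612 at E12.5 in C57BL/6, and to 282 to 367 against 667 to 693 in CD1. Endothelial markers summed to 110 to 122 at E13.5 against 44.5 to 173 at E12.5 in C57BL/6, and to 38.8 to 768 against 80.5 to 345 in CD1. Of the 10, 9 and 6 markers of these lists 0 were called in the mean of strains. With these 3 marker means as covariates 0 members were called in that mean, and the median change was 0.10, against 0.14 without them. Liver markers were not among these covariates. They summed to 16.2 to 18.6 CPM at E13.5 against 15.8 to 4363 at E12.5 in C57BL/6. In CD1 they summed to 17.2 to 942 against 254 to 292. Without CD1 wild-type E13.5 replicate 1, the highest of its group in erythroid and endothelial markers, the median in CD1 was 0.06, with 0 called. Without that library 6 members were called in the mean.

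Other lists also had more calls higher than lower at E13.5. In the mean of strains 5 of 17 citric acid cycle genes rose and 0 fell, among them Suclg2 (0.37 ± 0.06, adjusted p = 0.000393), with a median of 0.11. Of 22 hypoxia and glycolysis genes 7 rose and 0 fell, including Pkm (0.21 ± 0.04, 0.00176) and Ldha (0.27 ± 0.06, 0.00535), with a median of 0.18. Of 78 mitochondrial ribosomal protein genes 3 rose and 0 fell, with a median of 0.11, and of 82 cytosolic ones 24 rose and 2 fell, with a median of 0.17. The median of the 78 members was 0.14, and that of all genes 0.00. The coactivators parted, with Ppargc1b higher at E13.5 (0.89 ± 0.16, 0.000587) and Ppargc1a lower (-0.76 ± 0.21, 0.0147). Nrf1, Gabpa, Yy1 and Tfam were called in 0 of the 15 contrasts, and Esrra, the gene of ERR-alpha, was called lower in the mean of stages of SO (-0.41 ± 0.14, 0.04).

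The SO and stage contrasts share the CD1 wild-type libraries. Cox7b and Sdhd, higher at E13.5 in the mean of strains, were lower in SO at E13.5. For Sdhd the SO libraries at E13.5 (6.56, 6.35 and 6.61) stood beside wild-type values of 6.48, 6.55 and 6.51 at E12.5.

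For the core subunits chosen for description, over the 8 groups the means of Ndufv1, which binds NADH in complex I, ran between 6.71 (C57BL/6 wild-type E12.5) and 6.81 (SO E13.5), a range of 0.10, against a standard deviation within groups of 0.07. The Rieske protein gene Uqcrfs1 of complex III ran between 6.21 (SO E13.5) and 6.43 (C57BL/6 wild-type E13.5), and Uqcrc1 between 7.66 (SO E12.5) and 7.81 (SO E13.5). Ndufs1 of complex I ran between 6.83 (CD1 wild-type E12.5) and 7.04 (C57BL/6 wild-type E13.5), and Sdhb, the iron-sulfur subunit of complex II, between 6.46 (SO E12.5) and 6.65 (C57BL/6 wild-type E13.5). Cox5a of complex IV ran between 6.43 (SO E12.5) and 6.68 (CD1 wild-type E13.5). Sdha had the lowest mean in SO at E13.5 (7.97) and the highest in SD at E13.5 (8.25), a range of 0.28, against a standard deviation within groups of 0.05, but strain goes with the line here. Other core subunits of complex I had wider ranges, 0.38 for Ndufs8, 0.35 for Ndufv2 and 0.34 for Ndufs7, which were named after their values were seen, against 0.31 for the median member.

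The counted level of 2 members differed between the wild-type strains. Between the wild-type strains limma called 0 members at E12.5 (0.543% of all genes, 0.384% higher and 0.159% lower), with 4 at an unadjusted p under 0.05 and 0 with voom weights. At E13.5 it called 1 higher in C57BL/6 (0.42% of all genes, 0.333% higher and 0.0869% lower), Ndufa12, with 5.57, 5.05 and 5.20 in C57BL/6, against 4.20, 3.76 and 4.10 in CD1. The strains did not overlap, and the change was 1.26 ± 0.21 (adjusted p = 0.00565, and up to 0.045 without any 1 library). In the mean of days, a contrast added after those within days had been seen, 2 members were called higher and 0 lower (4.46% of all genes, 2.62% higher and 1.85% lower). Ndufa12 had 0.82 ± 0.15 (0.00386) and Cox7a2l (chromosome 17, 83501918 to 83517330) 0.99 ± 0.22 (0.0132). Both calls held without any 1 of the 12 libraries. Both genes have a near-identical locus, Gm15920 for Ndufa12 and Gm6969 for Cox7a2l. Reads of both strains were aligned to mm10, and whether strain sequence altered their mapping was not tested.

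Cox7a2l, also called SCAF1, is the supercomplex factor for which C57BL/6 mice are known to carry a variant allele with a short coding deletion. At E13.5 it had 6.95, 6.23 and 6.72 in wild-type C57BL/6, against 6.10, 5.25 and 5.48 in wild-type CD1, and at E12.5 6.47, 6.04 and 6.70 in C57BL/6, against 5.46, 5.56 and 5.30 in CD1. The strains did not overlap at either day, at 1.02 ± 0.31 (limma adjusted p = 0.151) and 0.96 ± 0.31 (0.135). The mutants followed their strain. Over the 12 libraries of the C57BL/6 line, SD included, the median was 6.64 and the lowest 5.49, with the next at 6.04. Over the 12 of the CD1 line, SO included, the median was 5.31 and the highest 6.55, with the next at 6.10 and 5.56. The 5.49 was SD E13.5 replicate 1, and the 6.55 SO E13.5 replicate 2, which lay nearer to the other line. Cox7a2l has a near-identical locus, Gm6969, so its counts are uncertain. Ndufa12 had a median of 4.84 in the C57BL/6 line and 4.24 in the CD1 line, with ranges of 4.24 to 5.57 and 3.76 to 5.02 that overlap. The 5.02 was also SO E13.5 replicate 2, a library without which the call of Ndufa12 in SO at E13.5 ended.

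**Figure D5:**
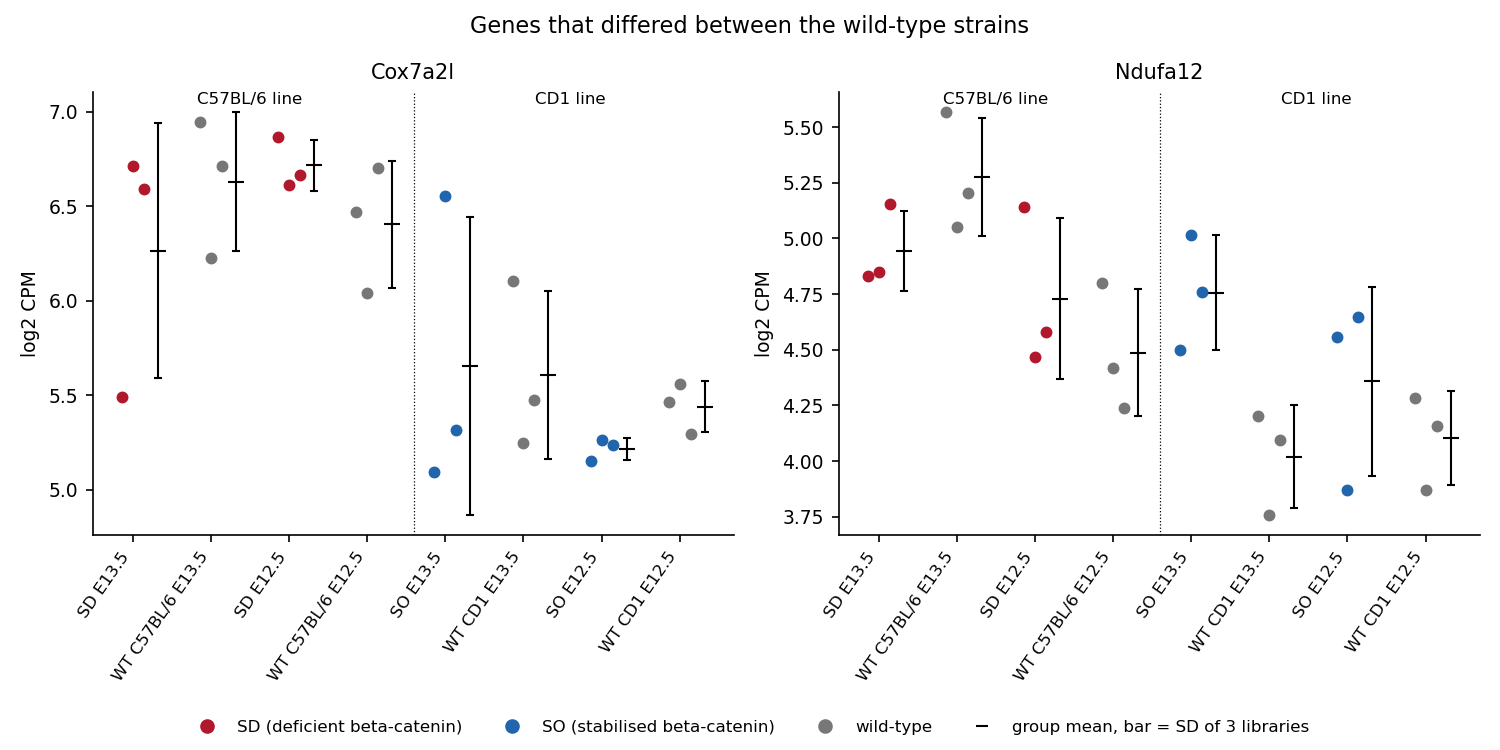
Log2 CPM of Cox7a2l and Ndufa12 in every library (dots), with group mean and SD of 3 libraries; the dotted line parts the C57BL/6 line (left) and the CD1 line (right). For Cox7a2l the line medians are 6.64 and 5.31, and SD E13.5 replicate 1 (5.49) and SO E13.5 replicate 2 (6.55) stand apart from their groups.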

How the data were processed

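RNA of sorted stromal cells was measured in 24 libraries. The values are log2 CPM that the authors deposited, normalised by TMM on the voom scale with 0.5 added to each count, per the file headers and a check of the values. Per the submitters' processing notes, HISAT2, HTSeq, limma and mm10 were used. Their versions, the use of strand and the low-count filter were not stated in the labels.

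All 13803 genes were fitted with limma 3.58.1 in R 4.3.3 (limma-trend), with 8 group means over 24 libraries and 16 residual and 6.43 prior degrees of freedom. Tests were two-sided, Benjamini-Hochberg adjusted over all genes, and called at 0.05. The filter (log2 CPM over 0 in 3 libraries) removed no gene. The log2 values became reads within 0.1 of a whole number when turned back to counts, and these gave the read counts. Lengths and neighbours came from GENCODE M21 and promoters from RefSeq. The fit was tested on simulated data. Alternatives were other normalisations, voom weights, a stricter filter (mean log2 CPM of at least 2), 2 added to each count, the libraries of a contrast alone, a replicate block, marker means as covariates and each library left out. Named genes were the called members of each contrast, or the 3 with the smallest p where none was called, isoforms and the core subunits, and the other 6 members called in the mean of strains and Ndufa4l2 beyond its isoform level were named after their values were seen. Some results on single genes are not reported here. Members and lists were chosen with earlier results of these data known. Replicate numbers did not pair the samples. Contrasts with shared wild-type libraries are not independent. Python 3.11.15 and pandas 2.3.3 made the summaries.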

Additional observations from a re-analysis of the deposited data

Results flagged for a closer look

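In 2 members every library of one group moved one way and every library of the other the opposite way under the same contrast, and for neither did the test of the difference itself pass (limma, adjusted over all genes). Ndufs4, an accessory subunit of complex I, was higher in SD than in wild-type at E12.5 (5.87, 5.66 and 5.87, against 5.58, 5.62 and 5.38) and lower at E13.5 (5.63, 5.58 and 5.69, against 5.74, 5.77 and 5.80). The effect at E13.5 minus that at E12.5 was -0.41 on the log2 scale (adjusted p = 0.89). Atp5s, the gene of coupling factor B, was higher at E13.5 in C57BL/6 (2.80, 3.19 and 3.27, against 2.52, 2.65 and 2.48) and lower in CD1 (2.56, 2.27 and 2.57, against 2.77, 2.62 and 2.77), with a C57BL/6 stage effect minus CD1 stage effect of 0.79 (adjusted p = 0.93).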

How the results depend on the processing

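Counts of called members were equal to the reported count or within 1.5 times of it in 99 of 120 alternatives that kept all libraries. Equal counts include 0 against 0, in contrasts where 0 members were called, so the 99 says less about counts above 0. Median changes moved by less than the spread of library medians, 0.11, in 120 of 120. Medians such as 0.07 in SD at E12.5 were under that spread themselves, so a change of sign could pass this limit. Fitted on the libraries of a contrast alone, 1 member was called in SD at E13.5, 1 in the mean for SD (Ndufa4l2 in both), 1 in SO at E12.5 (Atp5d), 1 in SO at E13.5, 1 and 0 for the day in C57BL/6 and CD1, and 1 for strain at E12.5 (Cox7a2l). With marker means as covariates the count was 1 in SO at E13.5 (Ndufa4l2, lower), 1 in the SO mean, 0 for the day in either strain and in their mean, and 1 for the strain mean. It was 1 for the day in C57BL/6 with quantile normalisation, and with library totals in place of TMM 1 there and 6 in the mean of strains. Voom weights gave 2 for the day in CD1. The replicate block gave 1 and 0 for the day in C57BL/6 and CD1, and 1 and 2 for strain at E12.5 and E13.5. Same-numbered libraries correlated between -0.365 and 0.276. The sign of Atp5g1 in the SD mean turned with covariates (-0.12, adjusted p = 0.894). The cause was not tested. Leaving out 1 library at a time, the counts ran 0 to 1 in SD at E12.5 and in the SD mean, 2 to 6 in SO at E13.5, 5 to 9 in the SO mean, 0 to 2 and 0 to 3 for the day in C57BL/6 and CD1, and 6 to 14 for their mean. With 3 libraries a group, and reads of Ndufa4l2, Cox4i2 and Atp5s often under 100, small changes of low members cannot be resolved.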
